A study of Mus musculus with 12 samples.

Results

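Macrophages and other white blood cells of the embryonic heart were followed through 34 marker genes. The genes were taken by name from a list of macrophage and leukocyte markers. The list was chosen with earlier results of these data known, so no test was run over its genes as a set. All 34 were among the 38293 gene identifiers of the deposited table. Of these, 31 passed the filter on low counts and were tested together with the other genes that passed, 13964 in all. Cd163, Folr2 and Timd4 did not pass and are given as levels only.

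RNA was measured by polyA RNA sequencing in ventricles of mouse embryos at E15.5, in 4 genotypes with 3 pools of 4 pairs of ventricles each. The Mib1 mutant (Mib1 R530X/flox; Tnnt2-Cre/+) carried a premature stop allele over a loxP-flanked allele of Mib1, with a Cre driver that removes loxP-flanked DNA in cardiomyocytes. The Cre control that it was set against was Mib1 flox/+; Tnnt2-Cre/+. The triple heterozygote carried the same stop allele, a missense allele of Asxl3 (named M1361V in the protocol and M1415V in the sample labels) and Apcdd1 V150I, each over a normal allele. Wild-type (WT) embryos were set beside it. Mib1 encodes a ubiquitin ligase that ligand-presenting cells need for Notch signalling. The stop allele is in every cell of the Mib1 mutant and of the triple heterozygote, blood cells included, whereas the Cre control lacks it. Cre driven by Tnnt2 acts in heart muscle cells, not in macrophages. Pooling means that a value is an average over several embryos. Pools are the replicates; whether pools share litters is not stated, so p-values measure the spread between these pools.

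Macrophages enter the heart of the embryo from the yolk sac and the fetal liver, take up dead cells and debris, and settle among muscle, vessels and epicardium. Their survival depends on the receptor encoded by Csf1r, and their identity on PU.1 (encoded by Spi1) and on the factor encoded by Maf. Resident cardiac macrophages are known for the uptake receptors encoded by Lyve1, Timd4, Folr2 and Mrc1, while Ccr2 marks cells that derive from monocytes.

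Per library, 10103476 to 22157646 estimated reads fell in genes, so 1 read was worth 0.0452 to 0.0990 CPM (counts scaled to a common library size by TMM). The 34 genes together held 2766 to 6755 reads per pool, which limits the precision for the low members. Mib1 itself had 54.8, 50.004 and 51.8 CPM in Mib1 mutant pools, against 108, 107 and 101 CPM in Cre controls, and 73.9, 57.9 and 74.03 CPM in triple heterozygote pools, against 145, 126 and 136 CPM in WT, with no overlap in either comparison. The first principal component of all genes, 27.2% of the variance, separated the 6 pools with Tnnt2-Cre from the 6 without it. Xist was at 0.0949 CPM in Mib1 mutant replicate 1 and 0.386 CPM in Cre control replicate 1, and at 71.4 to 457 CPM in the other 10 pools. For the genes named, calls that changed without both of those pools are given beside the result. RSEM divides reads that match several genes, and values that were not whole occurred in all 12 pools for Lyz2 and Fcgr3, in 9 for Ccr2, in 7 for Stab1, in 5 for Ms4a7 and in 2 each for Itgam and Maf. Their levels are less certain for that reason. Lyz1, the near copy of Lyz2, was at 0.652 to 1.99 CPM.

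Levels can be compared between genes per kilobase of exon. On that scale, as a mean over the 12 pools, Lyz2 (lysozyme, an enzyme that breaks bacterial cell walls) came first at 16.3 CPM per kilobase. C1qb (a chain of complement C1q, which tags targets for phagocytosis) followed at 8.62 CPM per kilobase, Ctss (cathepsin S, a lysosomal protease) at 8.14 and Stab1 (stabilin 1, a scavenger receptor) at 8.10. The other 2 C1q chains were at 6.55 for C1qa and 3.92 for C1qc CPM per kilobase. The tail was made of Folr2 (a folate receptor) at 0.262 CPM per kilobase, Ptprc (the pan-leukocyte antigen CD45) at 0.189, Cd163 (a haemoglobin scavenger receptor) at 0.0840 and Timd4 (a phosphatidylserine receptor) at 0.0402. Macrophage markers such as C1qa, C1qb, C1qc, Csf1r and Adgre1 had reads in all 12 pools. Genes of other leukocytes named next ranged from 0 to 9.30 CPM. Cd3e was at 0 in all 12 pools, Cd3d and Cd3g in 10, Ms4a1 (of B cells) in 11, Elane (neutrophil elastase) in 8 and Ly6c2 (of monocytes) in 6. Cd79b, a chain of the B cell receptor, had reads in all 12 pools at 0.0861 to 0.931 CPM. The mast cell proteases Cma1 and Cpa3 also had reads in all 12, at 0.0949 to 4.85 CPM and 0.854 to 9.30 CPM, as had S100a9 (a neutrophil calcium-binding protein) at 0.258 to 3.45 CPM. So had the lymphocyte genes Il7r (0.0821 to 0.997 CPM) and Ighm (0.258 to 0.907 CPM). Among monocyte and neutrophil genes, S100a8 (0.0861 to 2.92 CPM), Plac8, Csf3r and Ngp had reads in all 12 too.

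**Figure D1:**
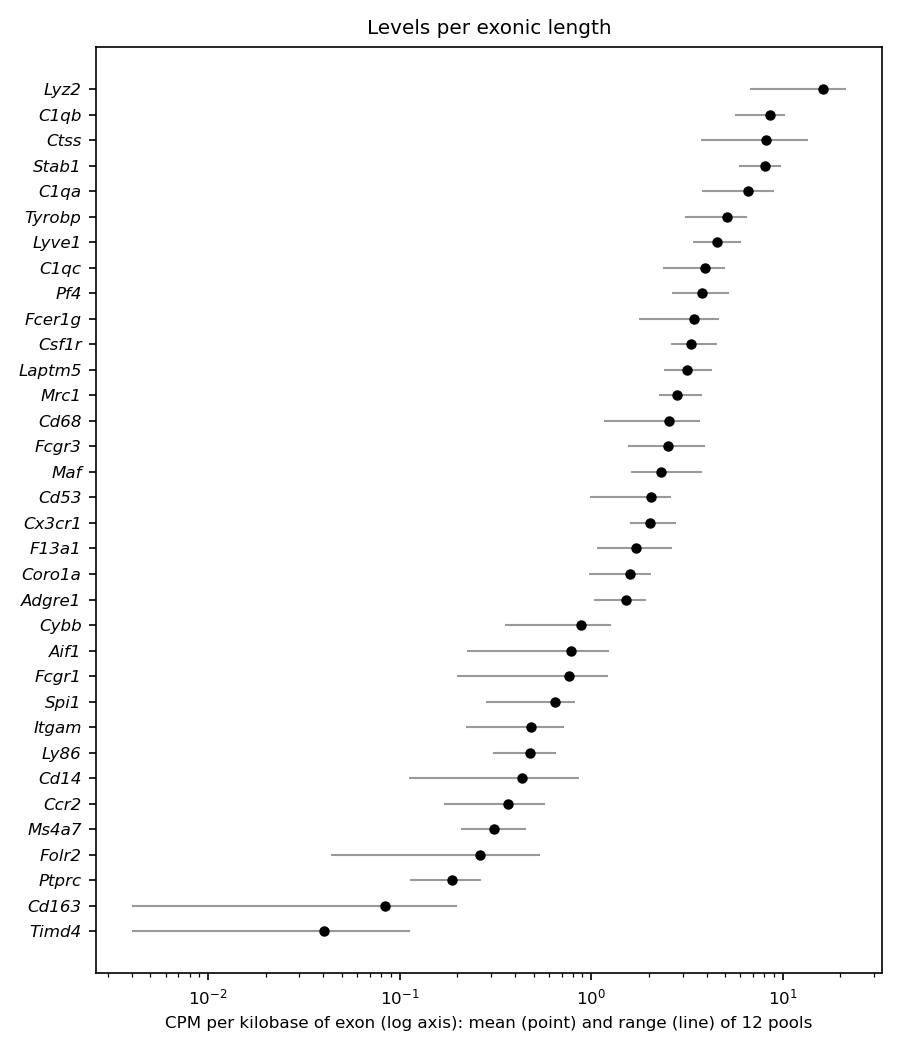
Levels of the 34 genes in CPM per kilobase of exon on a log axis, as the mean (point) and the range (line) of 12 pools. Lyz2 leads at 16.3 CPM per kilobase and Timd4 is last at 0.0402; lines of Cd163 and Timd4 are cut at the left because some pools had 0.

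The promoters of the 3 members that fell in the Mib1 mutant are given because all of them hold both a PU.1 and a MAF type word within the same window of 300 bases. They are the RefSeq windows of GRCm38.p6, from 250 bases before to 50 after the annotated start, 5′ to 3′ on the strand of the gene. Capitals mark ACTTCCT, the reverse complement of the PU.1 word AGGAAGT, and TGCTGA, a MAF half-site. Lyz2 lies at chr10:117282223-117282522 (minus strand), C1qb at chr4:136886151-136886450 (minus strand) and Ctss at chr3:95526536-95526835 (plus strand).
Lyz2: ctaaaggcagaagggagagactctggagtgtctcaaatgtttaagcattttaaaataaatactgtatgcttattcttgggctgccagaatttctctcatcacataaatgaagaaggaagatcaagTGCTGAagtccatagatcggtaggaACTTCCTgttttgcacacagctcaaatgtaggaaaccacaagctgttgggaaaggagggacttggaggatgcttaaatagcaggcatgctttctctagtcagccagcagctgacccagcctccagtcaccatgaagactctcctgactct
C1qb: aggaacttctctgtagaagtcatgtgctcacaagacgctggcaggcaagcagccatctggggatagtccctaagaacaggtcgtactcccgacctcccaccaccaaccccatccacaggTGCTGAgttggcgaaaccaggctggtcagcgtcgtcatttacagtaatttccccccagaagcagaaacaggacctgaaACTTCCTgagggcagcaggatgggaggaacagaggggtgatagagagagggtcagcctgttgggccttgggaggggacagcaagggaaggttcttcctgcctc
Ctss: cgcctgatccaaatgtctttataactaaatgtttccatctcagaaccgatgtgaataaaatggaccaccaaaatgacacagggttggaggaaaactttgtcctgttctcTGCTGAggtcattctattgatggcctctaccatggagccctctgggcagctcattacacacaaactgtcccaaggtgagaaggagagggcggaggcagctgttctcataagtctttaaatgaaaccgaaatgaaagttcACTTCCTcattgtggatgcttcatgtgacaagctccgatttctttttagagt
The PU.1 word started 100 bases before the start in Lyz2, 53 before in C1qb and 2 before in Ctss. The MAF half-site started 125, 131 and 141 bases before the start of Lyz2, C1qb and Ctss. The pair of matches did not overlap in any of these windows. Both words were searched on both strands and were chosen after these sequences had been seen, so their presence in all 3 was fixed by that choice. Folr2, which was not tested, also held both words. Of the 34 members, 26 had a window in the table. AGGAAGT was found in 11 of them (42.3%), among them Fcgr1, Ptprc and Mrc1, against 10.7% of 27025 genes with a window. TGCTGA was found in 9 of the 26 (34.6%), among them Stab1 and Laptm5, against 21.7% of genes. Both counts include Lyz2, C1qb and Ctss, whose matches were fixed by the choice of words. The member shares are therefore partly set by that choice and are no test of enrichment. A match is a description of the letters, not a bound site.

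In the Mib1 mutant, relative to the Cre control, 3 macrophage genes fell and none rose at an edgeR adjusted p under 0.05. They were Lyz2, C1qb and Ctss, which encode a lysozyme, a complement chain and a lysosomal protease. Across all genes tested, 0.594% were called lower and 0.909% higher in this comparison. Of the 31 members tested, 24 had a negative and 7 a positive log2 fold change, with a median of -0.52, beside a median of 0.0046 over all genes tested. At an unadjusted p under 0.05, 14 members were lower and 1 higher, beside 928 lower and 1026 higher of all 13964 genes tested. The 3 mutant pools lay below the 3 control pools without overlap for 14 members (45.2%), against 7.73% of all genes tested, and above them for 0 members, against 8.87% of all genes. In whole ventricle, fewer macrophages and less RNA per macrophage cannot be told apart.

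**Figure D2:**
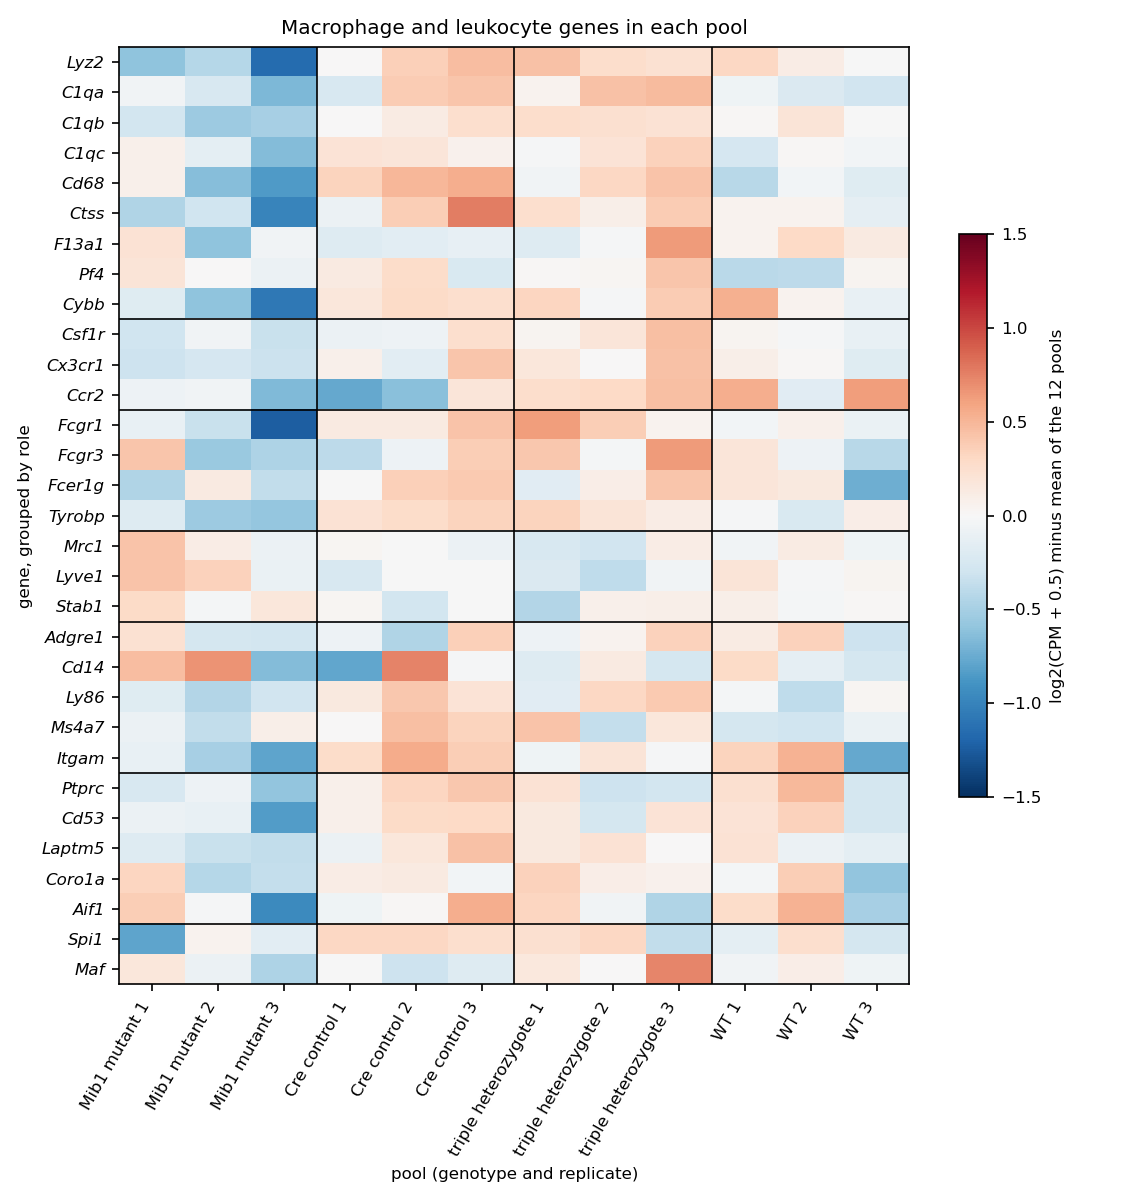
Each tested gene (rows, grouped by role) in each pool (columns, grouped by genotype), as log2(CPM + 0.5) minus the mean of its 12 pools; blue is lower and red higher. Mib1 mutant pools are mostly blue for the phagocyte effectors, and Mib1 mutant replicate 3 was the lowest of the 12 pools for 16 of 31 genes.

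The 3 called members are all phagocyte effector proteins, a group with negative values for 8 of 9 members. Lyz2 (chromosome 10, 117277331 to 117282321) was at 13.3, 15.1 and 8.87 CPM in the Mib1 mutant pools, against 20.6, 26.4 and 28.2 CPM in the Cre control pools. The triple heterozygote pools had 27.9, 24.7 and 23.95 CPM and the WT pools 25.5, 22.04 and 20.4 CPM. All 3 mutant pools were below each of the other 9. Group means were 12.4 ± 3.199 CPM in the Mib1 mutant and 25.1 ± 4.002 CPM in the Cre control (SD, n = 3 each), a difference of -1.02 on the log2 scale (SE 0.17), or 2.03-fold, at an edgeR adjusted p of 0.00455.

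Ctss (chromosome 3, 95526786 to 95556403) was at 7.59, 8.47 and 5.08 CPM in the Mib1 mutant and 9.94, 13.8 and 18.3 CPM in the Cre control, with 12.7, 11.2 and 13.96 CPM in the triple heterozygote and 10.999, 11.02 and 9.61 CPM in WT. Again every mutant pool was below the other 9, and the control pools were spread more widely than those of Lyz2. Its log2 fold change was -1.01 (SE 0.21), or 2.01-fold, at an edgeR adjusted p of 0.0251. C1qb (chromosome 4, 136880129 to 136886187) was at 7.498, 6.15 and 6.37 CPM in the Mib1 mutant and 9.27, 10.1 and 11.1 CPM in the Cre control, beside 11.2, 10.97 and 10.8 CPM in the triple heterozygote and 9.35, 10.6 and 9.197 CPM in WT. The 9 other pools lay close together and the 3 mutant pools below them. Its log2 fold change was -0.61 (SE 0.13), or 1.53-fold, at an edgeR adjusted p of 0.0289. The calls of Ctss and C1qb depended on single pools: Ctss missed the threshold without Mib1 mutant replicate 1 (0.0598) or 3 (0.0866), or without Cre control replicate 2 (0.0663) or 3 (0.129). C1qb missed it without Mib1 mutant replicate 2 (0.0569) or 3 (0.0784), or without Cre control replicate 2 (0.0822) or 3 (0.129). Lyz2 stayed called in each of the 16 alternatives.

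The other C1q chains lie beside C1qb in the same cluster on chromosome 4, with C1qa at 136895917 to 136898803 and C1qc at 136889804 to 136893065. C1qa was at 6.36, 5.49 and 3.96 CPM in the Mib1 mutant and 5.502, 8.76 and 8.98 CPM in the Cre control; these pools overlap through control replicate 1. Its log2 fold change of -0.57 (SE 0.22) and that of C1qc, -0.39 (SE 0.18), did not pass (edgeR adjusted p 0.232 and 0.366). Cd68 (macrosialin, a glycoprotein of phagocyte lysosomes) was at 3.23, 1.77 and 1.46 CPM in the Mib1 mutant and 3.96, 4.51 and 4.66 CPM in the Cre control, with no overlap. Its log2 fold change was as large as that of Lyz2, -1.03, but with an SE of 0.28 it did not pass (edgeR adjusted p 0.0834). Cybb (a subunit of the oxidase that makes superoxide in phagocytes) had 4.27, 3.07 and 2.07 CPM in the mutant, against 5.599, 6.104 and 5.94 CPM in the control, and -0.91 (SE 0.25) at 0.0898. Cd68 and Cybb were called with DESeq2 (adjusted p 0.0411 and 0.0377) and with no filter on low counts (0.0293 and 0.0206). The remaining effectors did not share this pattern: F13a1 (coagulation factor XIII A) was at 13.2, 7.26 and 10.9 CPM in the mutant and 9.85, 10.1 and 10.3 CPM in the control (0.05, SE 0.22). Pf4 (platelet factor 4, made by platelets as well as macrophages) was at 3.13, 2.7004 and 2.497 CPM in the mutant and 2.99, 3.36 and 2.23 CPM in the control (-0.03, SE 0.25).

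**Figure D3:**
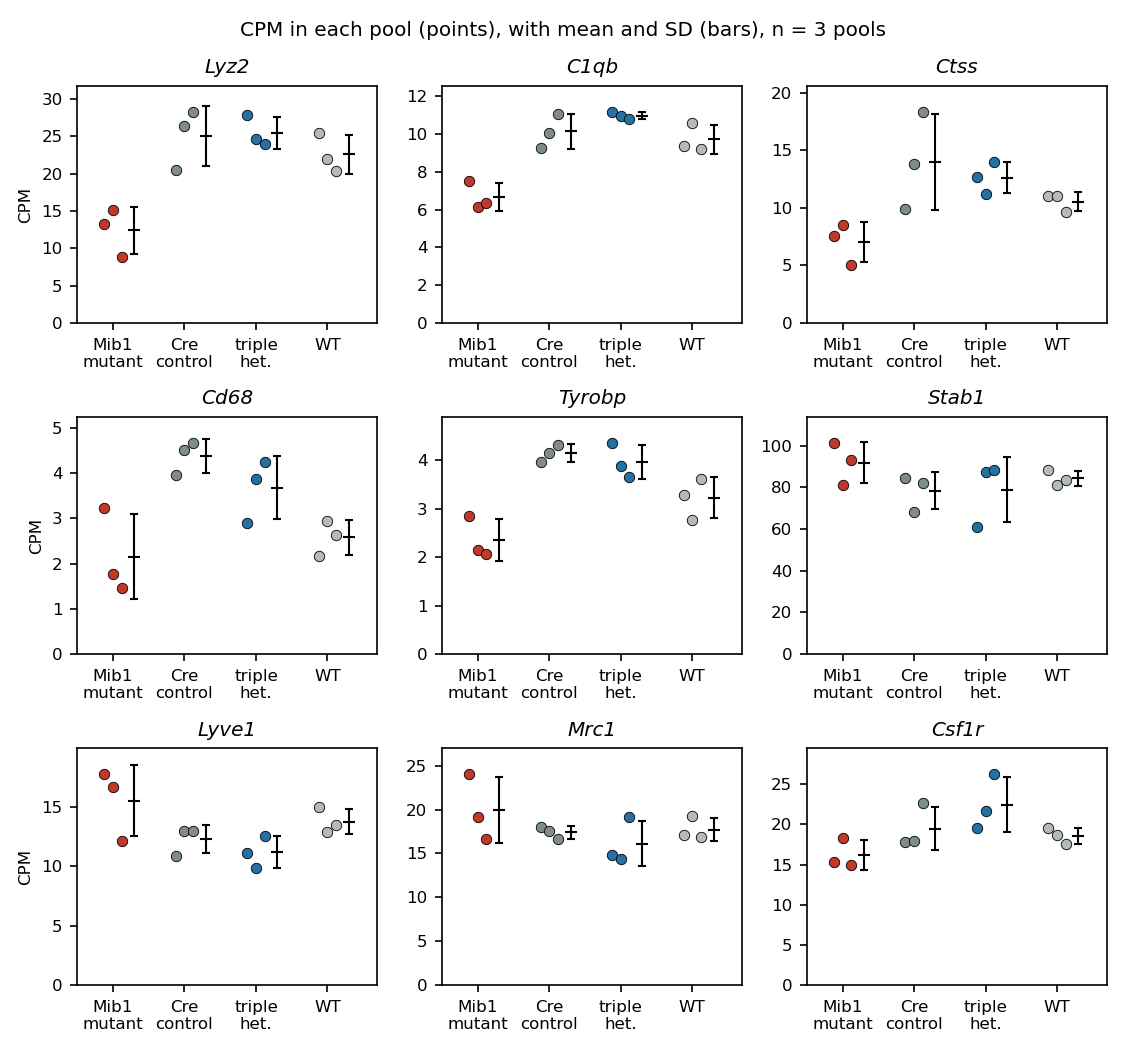
CPM of 9 members in each pool (points), with mean and SD (bars) of n = 3 pools per genotype; axes start at 0. Mib1 mutant pools lie below all Cre control pools for Lyz2, C1qb, Ctss, Cd68 and Tyrobp, and not for Stab1, Lyve1, Mrc1 and Csf1r.

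Among the receptors that sense growth factors and chemokines, none passed. Csf1r (the receptor for CSF1 and IL-34) was at 15.3, 18.3 and 14.98 CPM in the Mib1 mutant and 17.9, 17.96 and 22.6 CPM in the Cre control, with overlapping pools and a log2 fold change of -0.27 (SE 0.13, edgeR adjusted p 0.377). Cx3cr1 (the fractalkine receptor) was at 7.21, 7.54 and 7.15 CPM in the mutant and 9.56, 8.05 and 12.2 CPM in the control, without overlap (-0.45, SE 0.17, adjusted p 0.223). Ccr2 had 2.18, 2.23 and 1.29 CPM in the mutant and 1.16, 1.33 and 2.702 CPM in the control; its pools overlapped and its log2 fold change was 0.09 with an SE of 0.36. The ligand Csf1 was at 20.8, 14.2 and 14.5 CPM in the Mib1 mutant, against 12.9, 13.4 and 13.4 CPM in the Cre control. Its log2 fold change of 0.31 (SE 0.14) did not pass (edgeR adjusted p 0.311), although the pools did not overlap. Il34, the other ligand, was at 0 to 0.520 CPM over the 12 pools and was not tested.

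Fc receptors and their signalling adaptors had negative log2 fold changes for 4 of 4 members, with a median of -0.68, and none passed. Tyrobp (the adaptor DAP12, which carries signals of many myeloid receptors) was at 2.85, 2.14 and 2.07 CPM in the Mib1 mutant and 3.96, 4.16 and 4.32 CPM in the Cre control. Its mutant pools lay below all control pools, and its value of -0.82 (SE 0.21) was close to the threshold (edgeR adjusted p 0.0657). Fcgr1 (the high-affinity IgG receptor) had 1.71, 1.397 and 0.517 CPM in the mutant, against 2.12, 2.12 and 2.702 CPM in the control (-0.96, SE 0.35, adjusted p 0.214). Fcer1g (the Fc receptor gamma chain) differed by -0.55 (SE 0.31) and Fcgr3 (a low-affinity IgG receptor) by -0.17 (SE 0.32), both with overlapping pools. Summed over the 4 genes, levels were 7.66 to 12.3 CPM in the Mib1 mutant and 12.1 to 16.6 CPM in the Cre control.

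Of the 6 uptake receptors of resident macrophages 3 were tested; all 3 were positive in sign and none passed. Lyve1 (a hyaluronan receptor, also made by lymphatic endothelium) was at 17.7, 16.7 and 12.1 CPM in the Mib1 mutant and 10.9, 13.004 and 12.97 CPM in the Cre control. Its pools overlapped through mutant replicate 3, and its log2 fold change was 0.33 (SE 0.15, edgeR adjusted p 0.328). Mrc1 (the mannose receptor CD206) had 24.01, 19.2 and 16.6 CPM in the mutant and 18.1, 17.6 and 16.6 CPM in the control (0.19, SE 0.14, adjusted p 0.586). Stab1 had 101, 81.3 and 93.001 CPM in the mutant and 84.6, 68.3 and 82.3 CPM in the control (0.23, SE 0.13, adjusted p 0.453). All 3 genes are made by some endothelial cells too, and the share of each cell type in these levels was not tested. Stab1 carried 28.3% of the summed CPM of the 34 members. It also made up most of the sum of the 6 uptake receptors, with a mean of 83.3 of 115.3 CPM over the 12 pools. Taken singly, Stab1, Lyve1 and Mrc1 each had overlapping pools in this comparison. The uptake receptor sum was 118 to 143 CPM in the Mib1 mutant, above the 100.1 to 115 CPM of the Cre control, while the phagocyte effector sum was 45.7 to 66.4 CPM, below 76.4 to 97.6 CPM. Sums of all 34 members overlapped, with 238 to 303 CPM in the Mib1 mutant and 287 to 328 CPM in the Cre control.

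Untested uptake receptors stood at a few reads. Timd4 was at 0 in all 3 Mib1 mutant pools, at 0, 0 and 0.135 CPM in the Cre control, 0.0907, 0.135 and 0.09897 CPM in the triple heterozygote and 0.173, 0.168 and 0.246 CPM in WT; no pool had more than 3 reads. Cd163 was at 0.285, 0 and 0.172 CPM in the Mib1 mutant and 0.579, 0.708 and 0.338 CPM in the Cre control, with 0.272, 0.316 and 1.09 CPM in the triple heterozygote and 0.173, 0.589 and 0.985 CPM in WT. All 3 mutant pools lay below all 3 control pools. The largest count was 12 reads, in WT replicate 3. Folr2 ranged from 0.0676 to 0.838 CPM with no order between genotypes.

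Of 5 other surface proteins of macrophages, 4 had negative values and none passed. Itgam (the integrin CD11b of myeloid cells) was at 2.09, 1.49 and 1.119 CPM in the Mib1 mutant and 2.896, 3.63 and 3.11 CPM in the Cre control, with no overlap (-1.04, SE 0.35, edgeR adjusted p 0.178). Ly86 (MD-1, a partner of a Toll-like receptor relative) differed by -0.72 (SE 0.29) and Ms4a7 (a membrane protein of macrophages) by -0.52 (SE 0.34). Adgre1 (the F4/80 antigen) was at 5.69, 3.91 and 3.88 CPM in the mutant and 4.54, 3.36 and 6.28 CPM in the control, a difference of -0.09 (SE 0.26), and Cd14 (a lipopolysaccharide co-receptor) differed by 0.21 (SE 0.61).

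All 5 pan-leukocyte genes had negative values and none passed. Laptm5 (a lysosomal membrane protein of blood cells) was at 10.3, 9.22 and 9.04 CPM in the Mib1 mutant and 11.1, 13.4 and 16.2 CPM in the Cre control, without overlap (-0.52, SE 0.15, edgeR adjusted p 0.105). Ptprc had 2.75, 3.17 and 2.07 CPM in the mutant and 3.57, 4.33 and 4.59 CPM in the control (-0.65, SE 0.27), and Cd53 (a tetraspanin of leukocytes) 3.23, 3.17 and 1.72 CPM in the mutant and 3.67, 4.33 and 4.39 CPM in the control (-0.62, SE 0.27). Coro1a (an actin-binding protein) differed by -0.21 (SE 0.27) and Aif1 (IBA1, a calcium-binding protein of macrophages) by -0.46 (SE 0.51), with overlapping pools. Their sum was 16.4 to 23.3 CPM in the Mib1 mutant and 24.1 to 31.3 CPM in the Cre control.

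Of the 2 transcription factors, Spi1 was at 0.759, 1.77 and 1.46 CPM in the Mib1 mutant and 2.22, 2.21 and 2.09 CPM in the Cre control (-0.70, SE 0.34, edgeR adjusted p 0.385), with no overlap. Maf, which is expressed outside macrophages too, was at 20.98, 17.5 and 13.3 CPM in the mutant and 18.5, 14.9 and 16.2 CPM in the control (0.06, SE 0.19).

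For some members the Mib1 mutant pools lay below all 9 other pools and not only below their own controls. That was so for 7 (22.6%), against 2.56% of all genes tested; 0 members lay above all 9, against 3.17% of all genes. The 7 were Lyz2, C1qb, Ctss, Cybb, Cx3cr1, Fcgr1 and Laptm5. Fcgr1 was among them by less than 1 read, with 1.708 CPM in Mib1 mutant replicate 1 against 1.725 CPM in WT replicate 3. Pools within a genotype also differed together. Mib1 mutant replicate 3 was the lowest of all 12 pools for 16 of the 31 members, and of its own group for 22. Mib1 mutant replicate 1, a pool of near-zero Xist, was the highest of its group for 21, and Cre control replicate 1, the other such pool, the lowest of its group for 21. Without these 2 pools, 4 of 32 members tested were called, Lyz2, C1qb, Ctss and Cd68, and 110 of all 14101 genes tested.

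**Figure D4:**
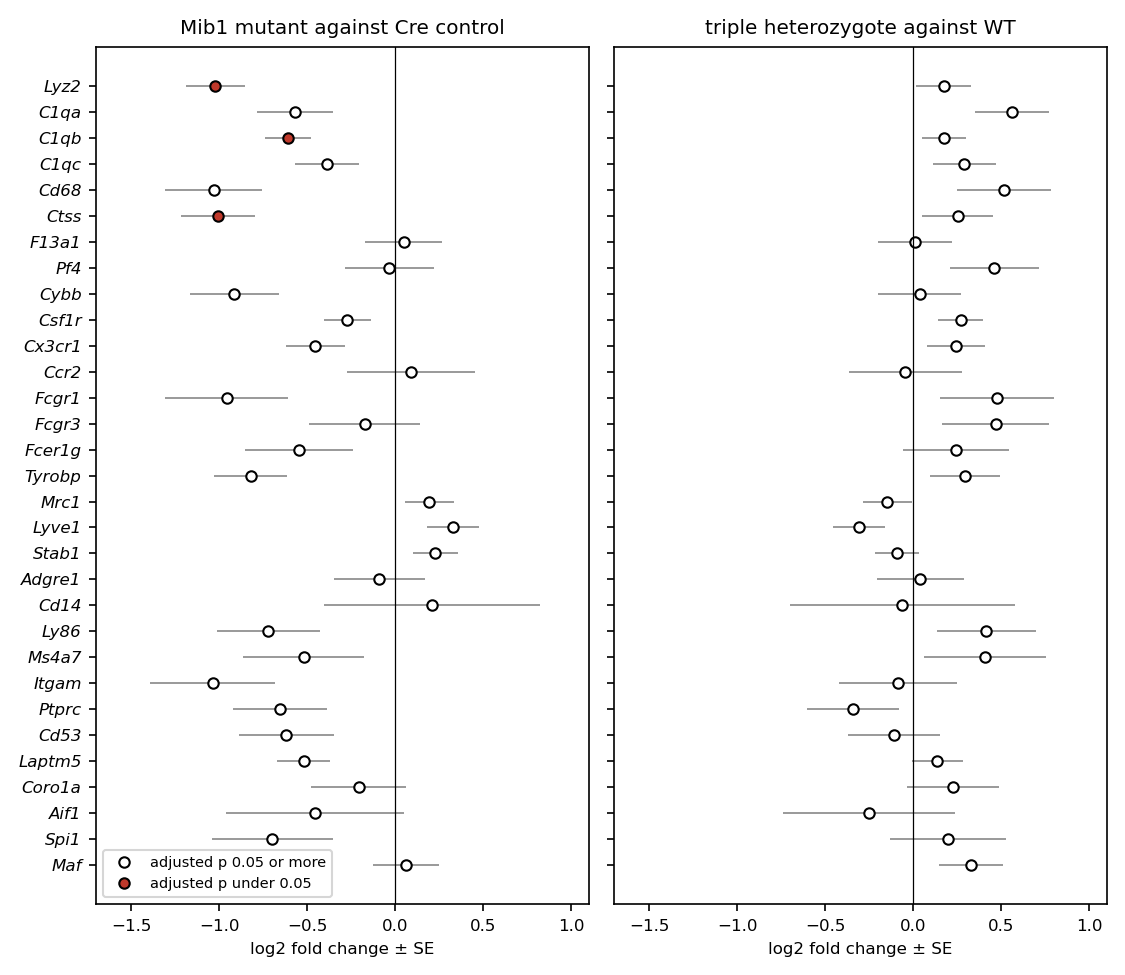
Log2 fold change ± SE of the 31 tested members (rows, by role) for the Mib1 mutant relative to the Cre control (left) and the triple heterozygote against WT (right); filled points have an edgeR adjusted p under 0.05. On the left 24 of 31 are negative and 3 are called; on the right 22 of 31 are positive and none is called.

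Macrophage genes outside the list were counted from companion lists. Of 63 other macrophage genes tested, 1 fell and none rose, with 43 negative and 20 positive values and a median of -0.18. The 1 was Mpeg1 (perforin-2, a pore-forming protein of phagocytes), at 10.1, 7.45 and 7.84 CPM in the Mib1 mutant and 14.0, 14.0 and 20.4 CPM in the Cre control. No mutant pool reached a control pool, and the log2 fold change was -0.94 (SE 0.18, edgeR adjusted p 0.0113); the call was missed without Mib1 mutant replicate 3 (0.0542) or Cre control replicate 3 (0.0705), and when only the 6 libraries compared were fitted (0.0573). Of 15 lysosomal and lipid-handling genes, Gpnmb and Spp1 fell and none rose, with a median of -0.07. Gpnmb (a lysosomal glycoprotein) was at 2.09, 5.77 and 2.84 CPM in the Mib1 mutant and 20.8, 20.3 and 23.2 CPM in the Cre control (log2 fold change -2.59, SE 0.40, edgeR adjusted p 0.00324). Spp1 (osteopontin) was at 7.97, 12.1 and 5.86 CPM in the Mib1 mutant and 35.3, 38.3 and 46.0 CPM in the Cre control (-2.22, SE 0.34, edgeR adjusted p 0.00298). The Cre control was also above WT for both, where Gpnmb was at 4.68 to 13.2 CPM and Spp1 at 8.21 to 23.8 CPM, although neither passed in that comparison (edgeR adjusted p 0.349 and 0.171). With no filter on low counts both were called there (0.00284 and 4.31e-05). Neither gene is restricted to macrophages. Of 6 antigen presentation genes tested, none passed (median -0.41).

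Genes of other blood cells gave fewer reads. Of 6 monocyte and neutrophil genes tested of 19, Itgal fell and 5 had negative values, with a median of -1.37; 7 of the 19 had a mean under 0.1 CPM. Itgal (the integrin LFA-1 alpha chain of leukocytes) was at 2.47, 1.49 and 2.07 CPM in the Mib1 mutant and 4.83, 3.27 and 5.74 CPM in the Cre control (log2 fold change -1.20, SE 0.26, edgeR adjusted p 0.0289). That call was missed in 6 of 16 alternatives, with adjusted p up to 0.143 without Cre control replicate 3; the others included leaving out Mib1 mutant replicate 2 or 3, Cre control replicate 1, or both pools of near-zero Xist (0.0968). S100a9 was at 0.258 to 0.652 CPM in the Mib1 mutant and 0.811 to 3.45 CPM in the Cre control. The list summed to 4.19 to 6.93 CPM in the Mib1 mutant and 9.27 to 15.0 CPM in the Cre control. None of 2 lymphocyte, 6 mast cell or 7 platelet genes tested was called. Cpa3 was at 0.854, 2.61 and 1.46 CPM in the Mib1 mutant and 3.86, 3.72 and 3.58 CPM in the Cre control, with no overlap, while Cma1 pools overlapped. Il2rg (a cytokine receptor chain of lymphocytes) was at 7.92 to 11.96 CPM in the Mib1 mutant and 8.69 to 13.4 CPM in the Cre control. Kit (the stem cell factor receptor of mast cells, also made by other heart cells) was at 29.3 to 41.1 CPM in the mutant and 23.3 to 29.7 CPM in the control. Gng11 (a G protein subunit abundant in platelets and endothelium) was at 39.1 to 51.5 CPM in the mutant and 43.7 to 49.4 CPM in the control. Those pools overlap; pools of Itgb3 (the integrin beta-3 chain of platelets) did not, with 11.8 to 14.6 CPM in the mutant and 8.85 to 10.6 CPM in the control.

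Sums of genes of other heart cell types were not tested. In this comparison the pools did not overlap for the cardiomyocyte, fibroblast, epicardial and liver sums, and overlapped for the endothelial, endocardial, lymphatic and erythroid sums. Cardiomyocyte genes summed to 42550 to 51684 CPM in the Mib1 mutant and 52207 to 57962 CPM in the Cre control (0 of 12 called, 10 negative, median -0.22). Fibroblast genes summed to 6096 to 7163 CPM in the mutant and 5264 to 5525 CPM in the control (0 of 12 called, 11 positive, median 0.23). Epicardial genes summed to 219 to 248 CPM in the mutant and 192 to 204 CPM in the control, and Krt18, a keratin, rose there (log2 fold change 1.19, SE 0.18, edgeR adjusted p 0.00322). Of 20 endothelial genes, Aplnr, the apelin receptor, fell (-0.90, SE 0.09, edgeR adjusted p 6.17e-05), as did Cd36, a fatty acid transporter (-0.47, SE 0.10, 0.0289). The call of Cd36 was missed without Mib1 mutant replicate 2 or 3 or any single Cre control replicate (0.0569 to 0.117). It was missed too when only the libraries compared were fitted (0.0942). The call of Krt18 was missed without both pools of near-zero Xist (0.0547). Of 8 lymphatic endothelial genes tested, Fxyd6, a modulator of the sodium pump, rose (0.68, SE 0.11, 0.00409), with sums of 257 to 307 CPM in the mutant and 252 to 277 CPM in the control. Prox1, the factor that defines lymphatic endothelium and is also made by cardiomyocytes, was at 121 to 152 CPM in the mutant and 138 to 149 CPM in the control. Endocardial genes had 0 of 9 called. Erythroid genes had 0 of 24 called and summed to 4165 to 5490 CPM in the mutant and 5131 to 5815 CPM in the control. Liver genes summed to 2.09 to 2.15 CPM in the mutant and 2.41 to 7.70 CPM in the control. The part these lists have in the macrophage values was not tested.

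**Figure D5:**
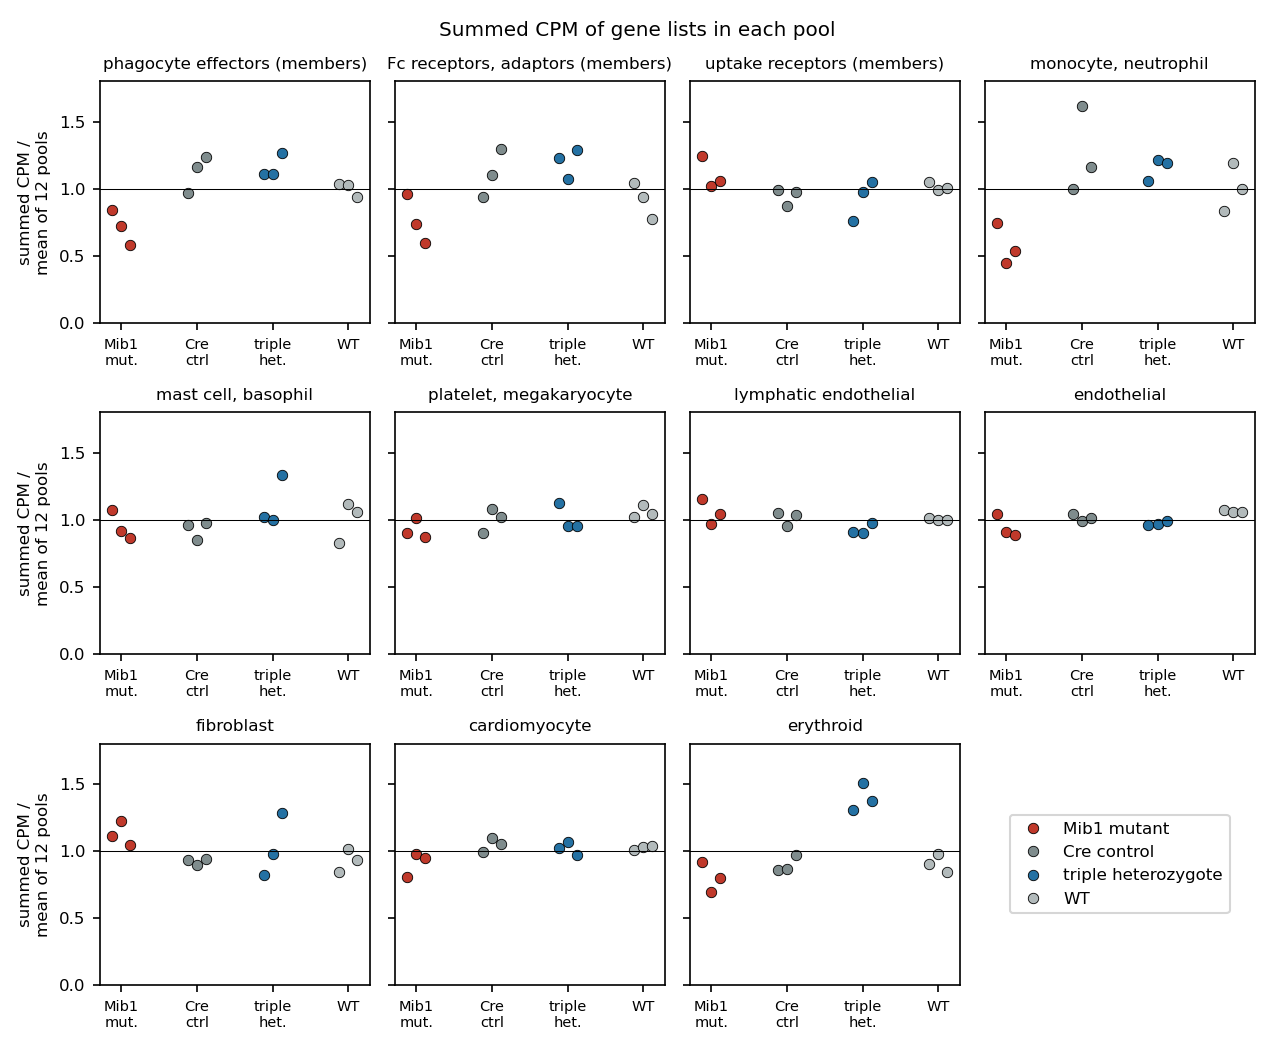
Summed CPM of 3 role groups of members and 8 lists of other cell types in each pool, divided by the mean of the 12 pools. The phagocyte effector and monocyte sums of the Mib1 mutant pools lie below those of the Cre control, the uptake receptor and fibroblast sums above, and the erythroid sums of the triple heterozygote pools above those of WT. Most of the uptake receptor sum is Stab1 (mean 83.3 of 115.3 CPM), whose own pools overlap between Mib1 mutant and Cre control.

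No macrophage or leukocyte gene passed in the triple heterozygote against WT. Over all genes tested, 0.00716% were called lower and 0.0143% higher, so this comparison gave almost no calls for any gene. Of the 31 members, 9 were negative and 22 positive, with a median log2 fold change of 0.20 beside 0 over all genes tested. At an unadjusted p under 0.05, 0 members were lower and 1 higher, beside 676 lower and 533 higher of all 13964 genes. DESeq2 called 0 members. Pools did not overlap in the higher direction for 4 members (12.9%: C1qa, C1qb, Ctss and Tyrobp), against 7.66% of all genes tested, and in the lower direction for 1 (Lyve1), against 9.25% of all genes. The phagocyte effectors were all positive in sign. C1qa was at 6.89, 9.12 and 9.403 CPM in the triple heterozygote and 6.32, 5.64 and 5.34 CPM in WT (0.56, SE 0.21, edgeR adjusted p 0.565). Lyz2 differed by 0.17 (SE 0.16), Ctss by 0.25 (SE 0.20) and Cd68 by 0.51 (SE 0.27). Lyve1 was at 11.2, 9.89 and 12.6 CPM in the triple heterozygote and 14.98, 12.9 and 13.5 CPM in WT, a difference of -0.31 (SE 0.15, adjusted p 0.5801). The 34 members summed to 286 to 349 CPM in the triple heterozygote and 276 to 308 CPM in WT. Triple heterozygote replicate 3 was the highest of all 12 pools for 9 members. In the same pools the alpha globin genes Hba-a1 (log2 fold change 0.76, SE 0.11, edgeR adjusted p 0.0351) and Hba-a2 (0.80, SE 0.11, 0.0189) rose. The Hba-a1 call was missed without triple heterozygote replicate 2 or 3 or any WT replicate (0.0901 to 0.398), the Hba-a2 call without triple heterozygote replicate 2 or any WT replicate (0.0710 to 0.204). With the replicate number as a block, the Hba-a1 call was missed too (0.0564). Erythroid genes summed to 7825 to 9000 CPM in the triple heterozygote, against 5056 to 5841 CPM in WT. The part of red blood cells in the macrophage values was not tested.

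Whether the effect of the Mib1 mutant, relative to its Cre control, differed from that of the triple heterozygote, relative to WT, was tested as the difference of the log2 fold changes. Lyz2 passed: the difference was -1.20 (SE 0.23) at an edgeR adjusted p of 0.0301. That call was missed without Mib1 mutant replicate 1 or 3, Cre control replicate 2 or 3, triple heterozygote replicate 1 or 2, or WT replicate 2 or 3 (0.0501 to 0.102). No other member passed, while 0.193% of all genes tested were called lower and 0.322% higher. Of 31 members, 25 differences were negative and 6 positive, with a median of -0.66. At an unadjusted p under 0.05, 13 members were lower and 1 higher, beside 862 lower and 1066 higher of all 13964 genes tested. The nearest to the threshold were C1qb (-0.78, edgeR adjusted p 0.0773), Ctss (-1.26, 0.0787), Cd68 (-1.54, 0.105) and Tyrobp (-1.12, 0.118). Outside the members Spp1 differed by -3.05 (edgeR adjusted p 0.00743) and Gpnmb by -2.63 (0.0490). Called too were Aplnr (-0.84) and 5 erythroid genes, Hba-a1, Hba-a2, Hbb-bs, Hbb-bt and Alas2 (-1.03 to -0.76). Alas2, a heme synthesis enzyme, was missed without both pools of near-zero Xist (0.117). Of 20 alternatives, the call was missed in 10 for Hbb-bt, 9 for Alas2, 8 for Hbb-bs, 4 for Hba-a1 and 0 for Hba-a2. Apart from that Alas2 case, each miss came on leaving out a single pool (0.0501 to 0.126). Aplnr stayed called in 21 of 21. Spp1 stayed called in 21 of 21 alternatives and Gpnmb in 8. The Gpnmb call was missed with limma-voom (adjusted p 0.0557) and with the erythroid genes left out (edgeR adjusted p 0.0528). It was also missed without each single pool other than Mib1 mutant replicate 2 and triple heterozygote replicate 3 (0.0658 to 0.172). Leaving out both pools of near-zero Xist lost it too (0.189). Without those 2 pools, 4 of 32 members were called, Lyz2, C1qa, Cd68 and Ctss, and 41 of all 14101 genes tested. The 2 contrasts use different controls and differ in Cre, in the flox allele and in the Asxl3 and Apcdd1 alleles, which cannot be told apart here.

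The Cre control against WT compares embryos that differ in the driver, the flox allele and the line, which cannot be told apart. It uses the same Cre control pools as the Mib1 mutant comparison and the same WT pools as the triple heterozygote comparison, so it is no independent check of either. Mib1 itself was lower in the Cre control, at 108, 107 and 101 CPM against 145, 126 and 136 CPM in WT, without overlap. No member was called; over all genes tested, 0.0286% were called lower and 0.251% higher. Signs were negative for 7 and positive for 24 members, with a median of 0.15. At an unadjusted p under 0.05, 1 member was lower and 1 higher, beside 586 lower and 591 higher of all 13964 genes. DESeq2 called 0 members. Pools did not overlap in the higher direction for 6 members (19.4%: C1qc, Cd68, Fcgr1, Tyrobp, Ly86 and Ms4a7), against 8.87% of all genes, and in the lower direction for F13a1 alone, against 10.2% of all genes. Cd68 had 3.96, 4.51 and 4.66 CPM in the Cre control and 2.17, 2.94 and 2.63 CPM in WT (0.76, SE 0.27, edgeR adjusted p 0.423), and Lyz2 had 20.6, 26.4 and 28.2 CPM in the Cre control and 25.5, 22.04 and 20.4 CPM in WT (0.15, SE 0.16). Ccr2 had 1.16, 1.33 and 2.702 CPM in the Cre control and 3.64, 2.02 and 3.86 CPM in WT (-0.83, SE 0.34, adjusted p 0.532). Mmrn1, a lymphatic and platelet matrix protein, was called higher here (edgeR adjusted p 0.0178). It was at 0.946 to 1.93 CPM in the Cre control and at 0 in all WT pools, and also at 0 in all triple heterozygote pools, with 0.931 to 2.18 CPM in the Mib1 mutant. Its call was missed without Cre control replicate 1 or 2 or any WT replicate (0.0555 to 0.0877), and without both pools of near-zero Xist (0.0543).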

How the data were processed

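RNA of 12 pools was sequenced with 60-base single reads. The table of expected counts that the authors deposited was made with RSEM, whose estimates can be fractions of a read (9.64% of values were not whole), per the submitters' processing notes, which also name bcl2fastq 2.20.0.422, cutadapt, limma and GRCm38. Not given in the sources used here are the aligner, the annotation and the strand setting of the counting. Columns were assigned by name; that the columns called mutant are the triple heterozygote is inferred from naming neither flox nor Cre. Symbols, positions and exonic lengths came from GENCODE M21, which held 36429 of 38293 identifiers; 0 columns were left out.

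After rounding, the counts were scaled by TMM, filtered with filterByExpr and tested two-sided by the quasi-likelihood F test of edgeR 4.0.16 (R 4.3.3), in 1 fit of 12 libraries and 4 groups with 8 residual degrees of freedom, adjusted by Benjamini-Hochberg over 13964 genes, which held 99.9% of the counts; a gene was called at an adjusted p under 0.05. An adjusted p in the text is from this test unless another is named. The SE is the log2 fold change divided by the square root of F. Replicate pairs differed by more than sampling noise, with a chi-square per degree of freedom of 2.05 to 13.3. Alternatives included limma-voom of limma 3.58.1 and DESeq2 1.42.0. The procedure was tested on simulated data for the Mib1 mutant against the Cre control. Made changes of 0.5, 1 and 2 on the log2 scale were called for 41.3%, 86.6% and 95.4% of changed genes. The changed genes were drawn from all genes with a mean of at least 1 CPM, so these shares need not hold for low members. Of the unchanged genes, 11 were called. A change near 0.5 was thus often missed. In the data, log2 fold changes of -1.03 for Cd68, -1.04 for Itgam and -0.96 for Fcgr1 did not pass in this comparison. Those of -1.02 for Lyz2 and -1.01 for Ctss did. All 34 members are named, and of 18 companion lists (307 of 312 entries found) the called genes, Csf1, Il34 and some leading genes; single defining markers of other leukocytes, and the promoter words, were chosen after their values were seen. Members and lists were chosen with earlier results of these data known. Some genes of the companion lists are not reported here.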

Additional observations from a re-analysis of the deposited data

Results flagged for a closer look

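Lyz2 was singled out because its response differed between the 2 genotype comparisons by a test of the difference itself. The difference between the log2 fold changes was -1.20 (SE 0.23, edgeR adjusted p 0.0301), made of -1.02 (SE 0.17) for the Mib1 mutant relative to the Cre control and 0.17 (SE 0.16) in the triple heterozygote against WT. The call of the difference depended on single pools. It was missed in 8 of 21 alternatives, each time on leaving out 1 pool (edgeR adjusted p 0.0501 to 0.102). Lyz2 was lower in 3 of 3 Mib1 mutant pools than in every Cre control pool, and its triple heterozygote and WT pools overlapped. The comparisons differ in the Cre driver, the flox allele and the other missense alleles, which cannot be told apart.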

How the results depend on the processing

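Where 3 members were called for the Mib1 mutant relative to the Cre control, DESeq2 and a test of all genes without the low-count filter each called 5. A fit of only the libraries compared called 1, and fits without single replicates called 1 to 4. For the difference between the effects, with 1 member called, these were 4 with no filter, 3 with DESeq2, 0 to 2 without single replicates, and 4 without both pools of near-zero Xist, an alternative added after the data were seen. In the same settings, 476 (no filter), 417 (DESeq2) and 93 (only the libraries compared) of all genes tested were called in the Mib1 mutant, against 210, and 246 (no filter) and 167 (DESeq2) for the difference, against 72. Without single replicates these totals were 116 to 415 in the Mib1 mutant and 28 to 233 for the difference. For the triple heterozygote, with 3 genes called in all, totals were 54 with no filter, 28 with DESeq2 and 10 in a fit of only the libraries compared. For the Cre control against WT, with 39, they were 144, 82 and 68. No member was called in the triple heterozygote against WT or in the Cre control against WT under any alternative. With the replicate number as a block, the members called stayed at 3 and 1, while calls over all genes became 318 in the Mib1 mutant, 109 for the difference and 59 between the controls. Same-numbered pools of the Mib1 mutant and Cre control correlated at 0.125, 0.166 and 0.0140 in their deviations from the group means. Pools of unlike number correlated at -0.210 to 0.113. These values do not settle whether the numbers pair pools, and the main fit did not pair them. In a fit of only the libraries compared, C1qb and Ctss missed the threshold (adjusted p 0.145 and 0.125); the cause was not tested. The median of the members ranged from -0.69 to -0.42 in the Mib1 mutant, and 21 members were negative and 3 positive in all 16 alternatives. Depth limits the low members, since 1 read is up to 0.0990 CPM.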
